A study of Mus musculus with 21 samples.

Results

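The comparison described here asked how the injured side of the mouse pons changed between day 14 and day 30 after a facial nerve was cut. It used 6 of the 21 RNA-seq libraries of the series, chosen by their labels: 3 from the lesion side at day 30 and 3 from the lesion side at day 14. All 22294 genes with a summed count of at least 30 over the 21 libraries were tested. The mice were CX3CR1GFP/wt on a C57BL/6 background, in which 1 copy of the fractalkine receptor gene carries GFP in its place, and every group shared this genotype. The right facial nerve was cut where it leaves the skull, at the stylomastoid foramen, when the mice were 8 weeks old. Lesion mice were therefore 10 weeks old at day 14 and 12 weeks old at day 30. The tissue was a block of the ventral pons that holds the facial nucleus and also neighbouring reticular and trigeminal nuclei, so each library also holds RNA of many cells other than the cut neurons. The left side of operated mice (contralateral, 3 libraries at each of days 7, 14 and 30), the lesion side at day 7 (3 libraries) and unoperated mice of 8 weeks (day 0, 3 libraries) served as reference levels. The labels do not say that the replicates of a group were separate animals, so the p-values measure only the spread between these libraries.

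Facial motor neurons lie in the brainstem and send cholinergic axons to the muscles of the face. After their axon is cut they switch on a set of injury and growth genes, among them transcription factors, neuropeptides, growth cone proteins and tubulins, and reduce the genes of transmission. Nearby microglia divide, gather around the cell bodies and can express antigen presentation and interferon-induced genes, while astrocytes become reactive.

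Of the 6 libraries, day 14 lesion replicate 2 stood apart from the others of its group. A chi-square statistic of counts, per gene, was 25.1 and 20.1 between it and replicates 1 and 3, against 6.1 between those replicates and 3.14 to 5.15 between the day 30 lesion libraries. Mitochondrially encoded genes took 2.81% of its counts, against 4.48% and 4.4% in the other day 14 lesion libraries. The summed level of a list of choroid plexus and ependymal genes was 446 CPM in it, against 159 and 76.6 CPM, where CPM is a gene's count scaled to the size of its library. Day 14 lesion replicate 1 differed in another way: a list of interferon-response genes summed to 854 CPM in it, against 447 and 439. Among motor neuron markers, all 6 libraries held Isl1 (2.12 to 3.4 CPM), while Mnx1 was at most 0.0972 CPM. Results that rest on either library are given with and without it. Total counts were 19614538 to 26540472 in the day 14 lesion libraries and 20923624 to 29827291 at day 30. The headers of the count columns name lane L002 for day 14 and lane L003 for day 30, so the day, the lane and the age of the mice cannot be told apart. The side letters in the headers of the day 30 count columns are the reverse of those in the sample titles. The sample descriptions assign these columns, and the direction of every lesion value at day 30 rests on that assignment.

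Promoters were searched for 7 genes described below: Sprr1a, which fell, and B2m, H2-K1, Cybb, Clec7a, Cst7 and Ccl3, which rose. The 3 printed were chosen from those that hold matches: Sprr1a, an axotomy-induced gene, B2m, an antigen presentation gene, and Cybb, a microglial gene. Each sequence runs from 250 bases before to 50 bases after a transcription start in RefSeq (GRCm38.p6), 5′ to 3′ on the gene's strand. Capitals mark matches on either strand to the AP-1 motif TGANTCA or to the interferon-stimulated response element (ISRE), searched as GAAA, any 2 bases and GAAA. Sprr1a lies on the minus strand at chr3:92485832-92486131 and holds 2 AP-1 matches. B2m lies on the plus strand at chr2:122147437-122147736 and holds 1 ISRE match. Cybb lies on the minus strand at chrX:9469275-9469574 and holds 1 AP-1 and 3 ISRE matches, none overlapping another. Of those not printed, Cst7 holds 1 AP-1 match, and H2-K1, Clec7a and Ccl3 hold 0 matches to either motif. Only exact matches to these patterns were sought, so 0 matches do not show that a variant of either element is absent.
Sprr1a: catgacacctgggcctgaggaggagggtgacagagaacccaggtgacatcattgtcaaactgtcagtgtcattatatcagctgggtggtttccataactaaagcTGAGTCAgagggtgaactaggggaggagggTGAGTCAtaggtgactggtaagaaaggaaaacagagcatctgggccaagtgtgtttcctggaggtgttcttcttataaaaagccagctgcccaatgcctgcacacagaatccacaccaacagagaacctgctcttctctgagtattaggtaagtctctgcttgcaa
B2m: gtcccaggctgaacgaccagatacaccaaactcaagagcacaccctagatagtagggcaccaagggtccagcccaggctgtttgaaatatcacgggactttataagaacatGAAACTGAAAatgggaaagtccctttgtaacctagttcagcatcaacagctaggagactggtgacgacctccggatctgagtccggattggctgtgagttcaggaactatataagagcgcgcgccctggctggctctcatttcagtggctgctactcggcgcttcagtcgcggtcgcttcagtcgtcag
Cybb: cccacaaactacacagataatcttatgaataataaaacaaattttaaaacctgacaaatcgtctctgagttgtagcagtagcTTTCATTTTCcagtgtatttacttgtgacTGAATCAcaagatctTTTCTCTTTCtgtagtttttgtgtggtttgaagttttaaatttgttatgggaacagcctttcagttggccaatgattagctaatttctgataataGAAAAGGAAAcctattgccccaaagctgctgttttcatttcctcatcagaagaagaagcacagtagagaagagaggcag
AP-1 matches occur in 7.81% and ISRE matches in 3.44% of the 32851 promoters of this length in the table. Counted by gene, as below, AP-1 matches occur in 2425 and ISRE matches in 1079 of 27025 genes. Among the axotomy genes described next, the AP-1 motif occurred in 2 of the 19 tested genes with a promoter in the table and in 1 of the 8 that changed. Among activated microglia genes the AP-1 motif occurred in 6 of 19 tested genes with a promoter and in 2 of the 4 that changed. The ISRE motif occurred in 5 of 19 tested class I presentation genes but 1 of the 6 that changed, and in 14 of 30 interferon-response genes but not in Irf9, the 1 that changed. A match is a description of the letters and does not show binding.

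From day 14 to day 30, injury and growth transcripts fell on the lesion side, and some genes of class I antigen presentation and of activated microglia rose. In all, 390 of 22294 genes passed an adjusted p of 0.05 in edgeR's quasi-likelihood test with Benjamini-Hochberg adjustment, which is 1.75% of those tested. Of these, 168 rose (0.754%) and 222 fell (0.996%). The median log2 difference (day 30 minus day 14) was 0.38 among the rising genes and -0.4 among the falling genes, so most changes were small. A difference of at least 1 on the log2 scale was reached by 18 rising and 45 falling genes. The 3 day 30 libraries lay all above or all below the 3 day 14 libraries for 389 of the 390 genes. Over all genes tested, 10% lay all above and 10.2% all below. Without day 14 lesion replicate 2, 115 genes were called, of which 28 rose and 87 fell, and 21 of the 168 rising and 82 of the 222 falling calls remained. The count was 1343 without day 14 lesion replicate 1, and 108, 140 and 156 without day 30 lesion replicates 1, 2 and 3. The plot of calls with each library left out shows how far the count depends on single libraries. In tissue of mixed cells, fewer cells of a type and less RNA per cell cannot be told apart.

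**Figure D1:**
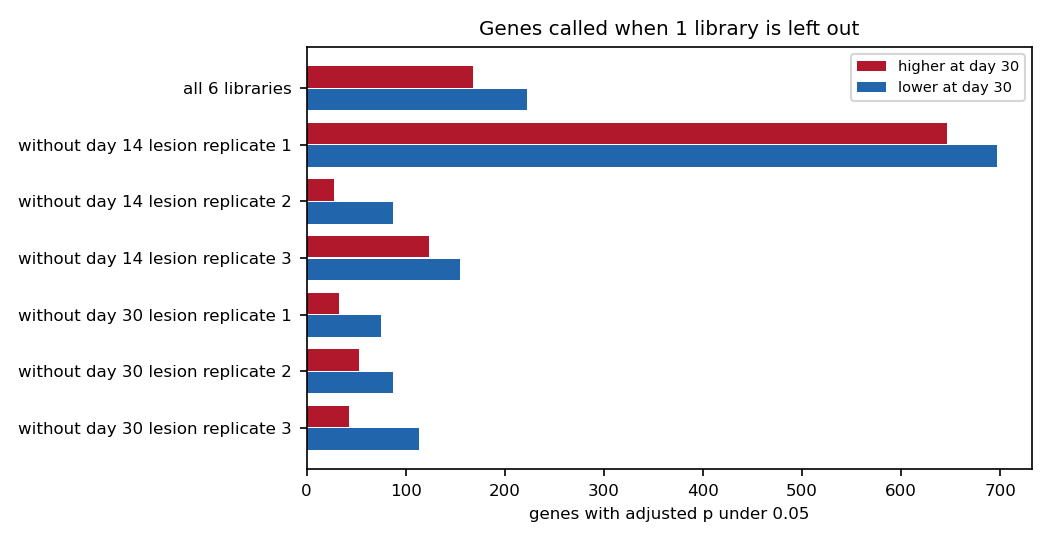
Number of genes with an adjusted p under 0.05 between day 30 and day 14 of the lesion side (horizontal axis), with all 6 libraries and with each library left out in turn. Red bars are genes higher at day 30 and blue bars genes lower. The total runs from 108 genes without day 30 replicate 1 to 1343 without day 14 replicate 1.

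The axotomy response list, 26 genes known to be induced in neurons by a cut axon, was the list with the most falling genes. Of its 25 tested members, 11 fell and 0 rose, with a median log2 difference of -0.38 against 0.005 over all genes. The 3 day 30 libraries lay all below the 3 day 14 libraries for 16 of the 25 members. The members summed to 2974 to 3325 CPM at day 14 and 2135 to 2314 CPM at day 30, so these groups did not overlap. Day 0 stood at 1891 to 2141 CPM, and its range touched that of day 30. With day 14 lesion replicate 2 left out, 9 members fell and the median was -0.37.

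Among the secreted and structural injury proteins, Sprr1a encodes a small proline-rich protein that promotes axon outgrowth (chr3:92483952-92485895, minus strand). Its level was 201, 223 and 254 CPM in the day 14 lesion libraries and 35.1, 82 and 72.8 CPM at day 30. All day 30 libraries were lower, but all remained far above the 0.275 ± 0.14 CPM (SD, n = 3) of unoperated pons. The difference was -1.85 ± 0.26 (log2 ± SE, adjusted p = 0.0024). Day 30 still exceeded day 0 by 7.78 ± 0.48 (adjusted p = 2.7e-08), in a comparison that called 22.4% of all genes and whose groups also differ in age and lane. Gal encodes galanin, a neuropeptide (chr19:3409915-3414544, minus strand). It measured 190, 238 and 236 CPM at day 14 and 27.8, 50.5 and 50.7 CPM at day 30, against 10.4 ± 4.9 CPM at day 0. The groups did not overlap, and the fall was -2.37 ± 0.3 (adjusted p = 0.00083). Npy, another neuropeptide, measured 123, 155 and 156 CPM at day 14 and 35.1, 53.6 and 71 CPM at day 30. Its difference of -1.45 ± 0.36 did not pass the test (adjusted p = 0.062).

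The injury transcription factor Atf3 (chr1:191170296-191218039, minus strand) measured 62.4, 71 and 81.9 CPM at day 14 and 10.1, 22.3 and 24 CPM at day 30. Every day 30 library was below every day 14 library and above the 1.2 ± 0.28 CPM of day 0. The fall was -1.95 ± 0.22 (adjusted p = 0.00031). Sox11, a transcription factor of growing neurons, fell from 15.4, 17.3 and 15.9 CPM to 8.69, 10.7 and 11.4 CPM (-0.67 ± 0.12, adjusted p = 0.0039, but 0.06 without day 30 replicate 1). Jun, a component of AP-1, measured 77.7, 81 and 79.5 CPM at day 14 and 60.6, 56.4 and 65.8 CPM at day 30, against 55.2 ± 1.1 CPM at day 0. Its fall of -0.38 ± 0.09 (adjusted p = 0.031) was not called without day 14 replicate 2 or 3 or without day 30 replicate 1 or 2 (adjusted p = 0.067 to 0.16). With only the 2 groups in the model, whose spread then comes from 6 libraries alone, adjusted p was 0.18 for Sprr1a, 0.07 for Gal and 0.16 for Atf3.

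Receptor and cytoskeletal genes of the list fell too. Gfra1 encodes the receptor subunit that binds the survival factor GDNF (chr19:58235604-58455909, minus strand). It measured 172, 159 and 193 CPM at day 14 and 80.9, 99.2 and 111 CPM at day 30, with no overlap between the groups. Day 0 stood at 65.1 ± 9.5 CPM and the contralateral side at 65.3 ± 4.7 CPM on day 14 and 66.9 ± 6.6 CPM on day 30. The fall was -0.85 ± 0.11 (adjusted p = 3e-04). Ret, the signalling partner of that receptor and not a member of the list, was chosen after its values were seen. It fell by 0.4 on the log2 scale (adjusted p = 0.0087), which was not called without day 30 replicate 2 (adjusted p = 0.073).

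Tubb2b, a beta-tubulin of developing neurons (chr13:34126748-34130466, minus strand), fell from 107, 129 and 113 CPM to 70.6, 75.6 and 74.8 CPM (-0.66 ± 0.08, adjusted p = 4e-05). The day 30 libraries were close to the 66.7 ± 5.2 CPM of day 0, and the difference of 0.14 ± 0.08 from day 0 did not pass the test (adjusted p = 0.23). Tuba1a, an alpha-tubulin, measured 511, 565 and 574 CPM at day 14 and 445, 426 and 436 CPM at day 30 (-0.34 ± 0.06, adjusted p = 0.0045). Tubb3 and Tubb6, beta-tubulins outside the list and chosen after their values were seen, fell by 0.43 and 0.96 on the log2 scale (adjusted p = 8e-04 and 5.5e-07). Gap43, a growth cone protein, measured 291, 341 and 359 CPM at day 14 and 238, 258 and 252 CPM at day 30. Its fall of -0.41 ± 0.09 (adjusted p = 0.023) was not called without day 14 replicate 2 or 3 or without any one of the day 30 libraries (adjusted p = 0.059 to 0.16).

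Gadd45a, a stress and growth arrest gene (chr6:67035096-67037457, minus strand), measured 20.9, 20.5 and 22.7 CPM at day 14 and 8.15, 10.8 and 12.4 CPM at day 30. The fall was -1.04 ± 0.12 (adjusted p = 1e-05), and the 8.98 ± 1.1 CPM of day 0 lay within the range of the day 30 libraries. Gpr151, an orphan receptor, fell from 15.2, 15.4 and 19 CPM to 3.6, 7.68 and 8.26 CPM (-1.37 ± 0.23, adjusted p = 0.0033). Its adjusted p was 0.13 with only the 2 groups in the model and 0.074 with limma on the deposited log2 matrix. The 14 other tested members of the list did not pass the test. Among them Hspb1, a small heat shock protein of injured neurons, gave -0.25 (adjusted p = 0.33), Ecel1 -0.41 (adjusted p = 0.26) and Klf6, a transcription factor, 0.05.

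**Figure D2:**
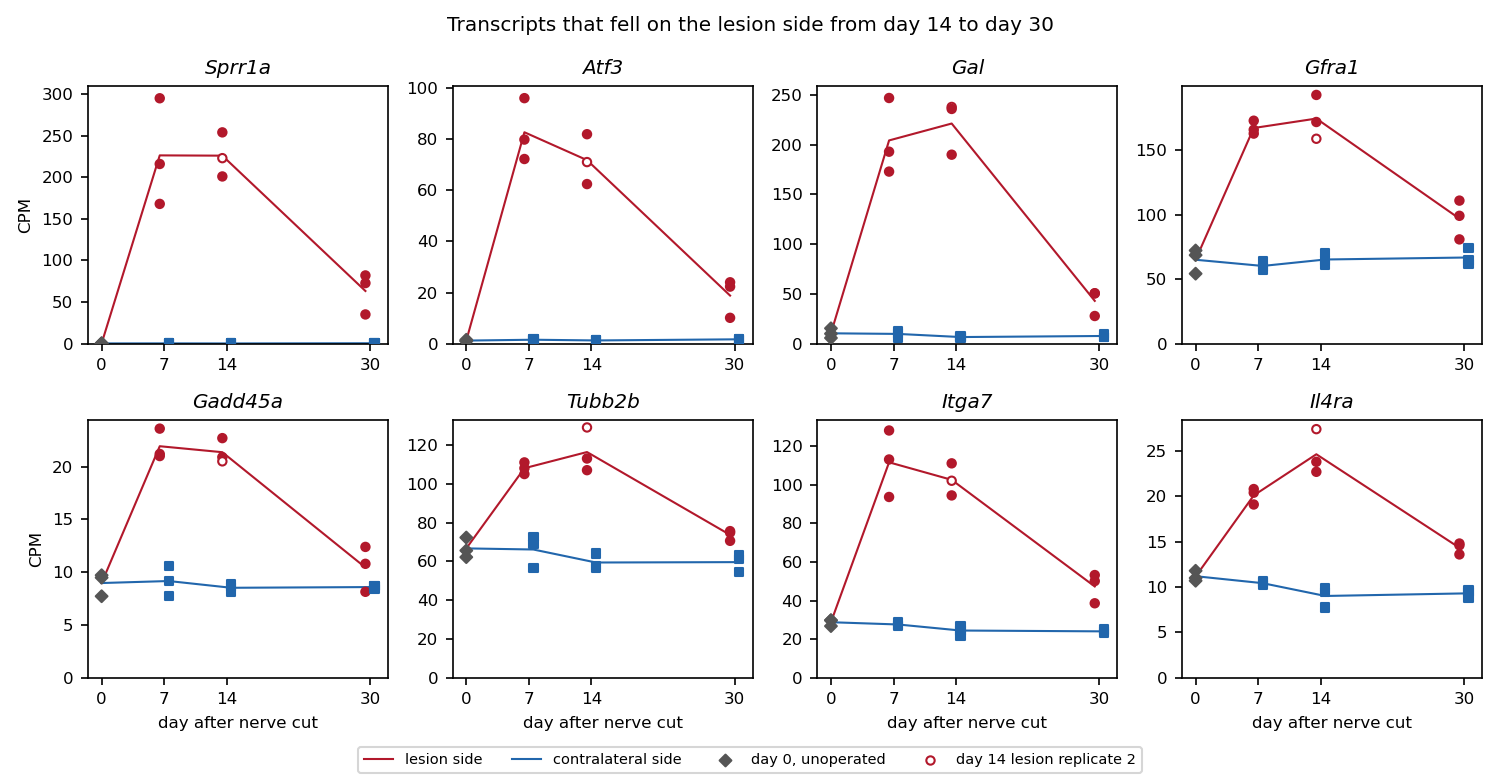
Level in CPM (vertical axes, from 0) against day after the nerve cut (horizontal axes) for 8 transcripts that fell on the lesion side. Each point is a library and the lines join group means. Red is the lesion side, blue the contralateral side, grey diamonds are unoperated mice and the open circle is day 14 lesion replicate 2. For Sprr1a, Atf3 and Gal the day 30 lesion libraries lie below day 14 and above day 0, while for Gadd45a the day 30 lesion libraries reach the day 0 level.

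The largest falls among genes above 1 CPM in a group were mostly outside the lists. Serpinb2, an inhibitor of plasminogen activators (chr1:107511423-107535478, plus strand), measured 2.23, 1.56 and 2.18 CPM at day 14 and 0.0337, 0.0908 and 0.0486 CPM at day 30. This was 144 counts against 4 over the 3 libraries, the fall was -5.03 ± 0.52 (adjusted p = 5.6e-06), and the day 30 libraries overlapped those of day 0. Cyp26a1, an enzyme that degrades retinoic acid, measured 2.48, 5.32 and 5.65 CPM at day 14 and 0.236, 0.182 and 0.34 CPM at day 30 (-4.15 ± 0.37, adjusted p = 4.1e-07). Anxa10, an annexin, fell from 14.7, 18.4 and 18.8 CPM to 4.88, 3.27 and 5.4 CPM (-1.94 ± 0.17, adjusted p = 4.1e-07). In all 3 of these genes the day 30 libraries lay well below the day 14 libraries. Contralaterally the log2 differences were -2.04 for Serpinb2, -2.86 for Cyp26a1 and 0.14 for Anxa10. None of the 3 was called for the difference between sides. The other large falls were those of Sprr2j-ps, of the small proline-rich family, whose reads could come from its relatives (-4.92 ± 0.51), Sh2d1b2 (-3.56 ± 0.54), Ankrd1 (-2.27 ± 0.35), Serpina3i (-2.12 ± 0.35) and the chemokine Ccl7 (-2.01 ± 0.35), with adjusted p of 1.4e-05 to 0.0028. Ankrd1 was not called by limma on the deposited log2 matrix (adjusted p = 0.083). The neuropeptides Vip and Grp, chosen after their values were seen, fell by 1.14 and 1.69 on the log2 scale (adjusted p = 0.0025 and 0.00022). Their contralateral differences were -0.6 and 0.06, and neither was called for the difference between sides.

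Among genes that define cholinergic motor neurons more were higher than lower at day 30, but few passed the test. Their summed level was not higher, at 5125 to 6222 CPM at day 14 and 4865 to 5473 CPM at day 30, ranges that overlapped. The list had 18 tested members, 13 with a positive difference and 5 with a negative one. Its median log2 difference was 0.33, against 0.07 on the contralateral side. By edgeR it had 2 rising members, Calca and Lhx4, and none that fell, with 5 higher and 3 lower at an unadjusted p under 0.05, and DESeq2 and limma-voom each called 3 higher and 1 lower. In the fit without day 14 lesion replicate 2, edgeR called 0. Lhx4, a transcription factor of motor neuron development, measured 6.38, 6.18 and 6.66 CPM at day 14 and 9.7, 11.4 and 8.41 CPM at day 30, against 10.1 ± 0.43 CPM at day 0. The day 30 libraries lay around the day 0 level and the rise was 0.62 ± 0.13 (adjusted p = 0.0096), but 0.061 without day 14 replicate 2 and 0.089 without day 30 replicate 2. Calca, which encodes the neuropeptide CGRP (chr7:114631478-114636357, minus strand), measured 52.3, 46.9 and 51.4 CPM at day 14 and 141, 58.5 and 98.9 CPM at day 30, against 30.8 ± 3.1 CPM at day 0. The day 30 libraries differed widely among themselves. The rise of 0.99 ± 0.23 (adjusted p = 0.045) was not called without day 14 replicate 2 or 3 or without day 30 replicate 1 or 3 (adjusted p = 0.092 to 0.22), nor with only the 2 groups in the model (adjusted p = 0.35). Calcb, which encodes a related peptide, measured 4.15, 2.35 and 2.82 CPM at day 14 and 15, 5.72 and 11 CPM at day 30. Its rise of 1.81 ± 0.37 (adjusted p = 0.024) was not called without the same libraries (adjusted p = 0.069 to 0.15) or with only the 2 groups (adjusted p = 0.19).

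The genes of acetylcholine synthesis themselves did not pass the test. Chat, the synthesising enzyme, measured 13.8, 9.94 and 14.7 CPM at day 14 and 23.3, 18.3 and 18.1 CPM at day 30 (0.65 ± 0.23, adjusted p = 0.16). All day 30 libraries were above those of day 14 and below the 33.6 ± 3.7 CPM of day 0, and the difference of -0.74 ± 0.21 between day 30 and day 0 passed the test (adjusted p = 0.02). Slc5a7, the choline transporter, measured 47.4, 26.6 and 40.8 CPM at day 14 and 89.5, 63.7 and 73 CPM at day 30 (0.99 ± 0.3, adjusted p = 0.11), against 74.4 ± 15 CPM at day 0. Kcnj14, a potassium channel of motor neurons, stayed low, at 3.69 to 3.95 CPM at day 14 and 4.62 to 4.81 CPM at day 30 against 13.5 ± 1 CPM at day 0 (0.31, adjusted p = 0.48). Vipr2, a receptor for VIP, was 0.968 to 2.38 CPM at day 14 and 2.04 to 3.2 CPM at day 30 against 7.41 ± 1.2 CPM at day 0 (0.68, adjusted p = 0.23). Prph, which encodes the neurofilament protein peripherin, went the other way, with 127, 194 and 160 CPM at day 14 and 110, 98.1 and 109 CPM at day 30 (-0.61, adjusted p = 0.11).

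Some class I antigen presentation genes rose on the lesion side, and none fell. These genes encode the surface molecules that display peptides to CD8 T cells and the machinery that loads them. Of 21 tested members 6 rose and 0 fell, with a median of 0.32 against 0.2 contralaterally. All 3 day 30 libraries lay above all 3 day 14 libraries for 9 of them. Without day 14 lesion replicate 2 there were 3 rising members, and also 3 without day 14 replicate 3, day 30 replicate 1 or day 30 replicate 3. H2-K1, a heavy chain (chr17:33996017-34000347, minus strand), measured 75.3, 62.6 and 58.7 CPM at day 14 and 99, 101 and 109 CPM at day 30. Day 0 stood at 47.1 ± 3.8 CPM, so the lesion side moved further from the unoperated level, by 0.66 ± 0.11 (adjusted p = 0.002). H2-D1, another heavy chain (chr17:35262730-35267499, plus strand), rose from 140, 111 and 119 CPM to 166, 168 and 176 CPM (0.46 ± 0.07, adjusted p = 0.00083), against 88.3 ± 3.3 CPM at day 0.

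B2m encodes the light chain shared by all class I molecules, and its promoter is printed above. It measured 206, 141 and 153 CPM at day 14 and 241, 209 and 273 CPM at day 30. The rise of 0.54 ± 0.11 (adjusted p = 0.02) was not called without day 14 replicate 2 or 3 or without day 30 replicate 1 or 3 (adjusted p = 0.066 to 0.14), nor with only the 2 groups in the model (adjusted p = 0.24). H2-Q7, a non-classical heavy chain, rose from 2.23, 1.56 and 1.62 CPM to 5.45, 4.95 and 5.1 CPM (1.53 ± 0.22, adjusted p = 0.00028). H2-Q6 and H2-Q4, of the same cluster, rose by 1.29 ± 0.28 and 0.75 ± 0.18 (adjusted p = 0.02 and 0.026). Their calls were lost without day 14 replicate 2 or 3 or any one day 30 library (adjusted p = 0.064 to 0.14 and 0.068 to 0.19). Reads of these near-identical heavy chains can be assigned to the wrong copy, so their separate values are uncertain. The immunoproteasome subunit Psmb8 gave 0.54 (adjusted p = 0.1) and the peptide transporter Tap1 0.32 (adjusted p = 0.56).

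**Figure D3:**
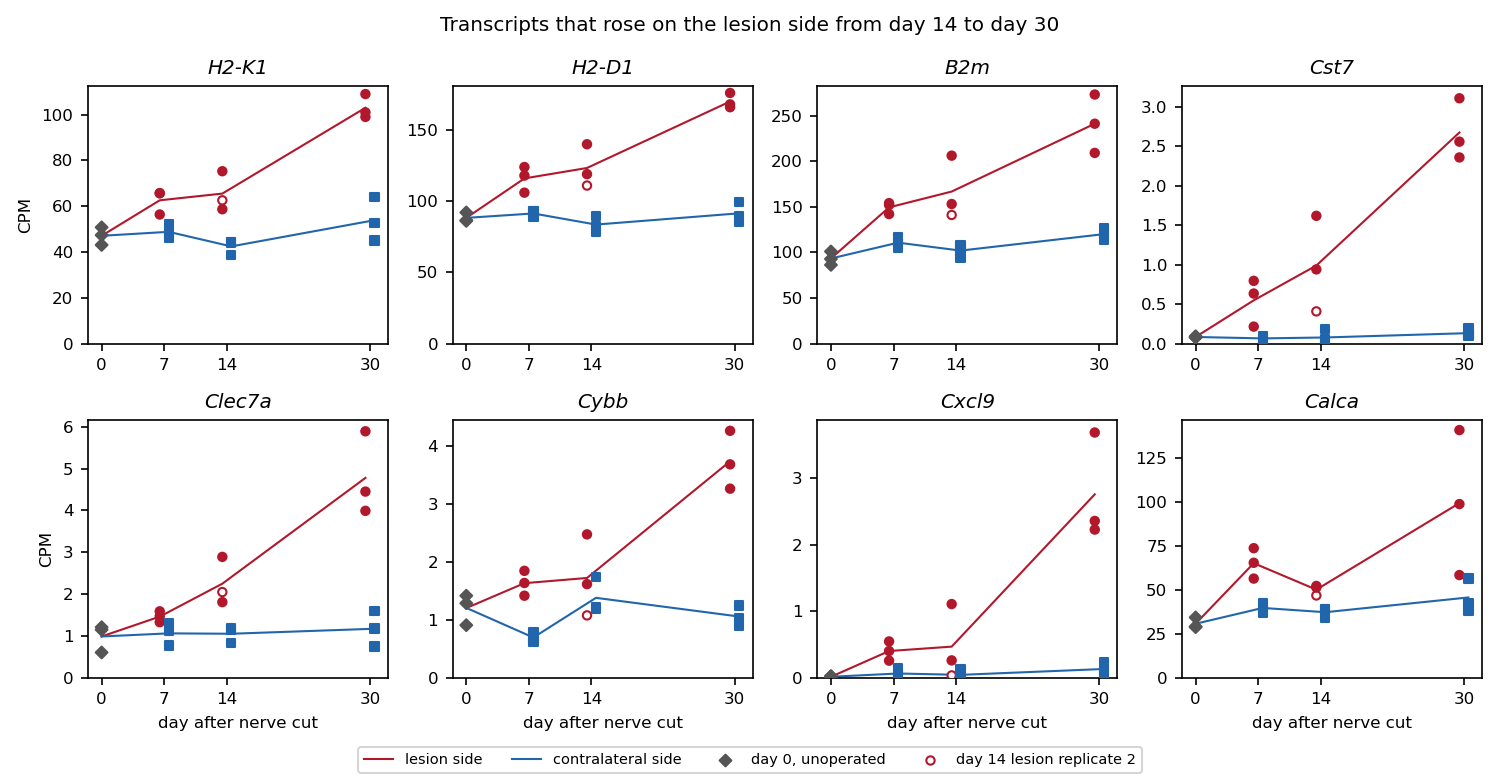
Level in CPM (vertical axes, from 0) against day after the nerve cut (horizontal axes) for 8 transcripts that rose on the lesion side. Each point is a library and the lines join group means. Red is the lesion side, blue the contralateral side, grey diamonds are unoperated mice and the open circle is day 14 lesion replicate 2. H2-K1 and H2-D1 are higher at day 30 than at day 14 or day 0, and replicate 2 is the lowest of the day 14 lesion libraries for Cst7, Cybb and Cxcl9.

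A part of the activated microglia list rose, while edgeR called no member of the homeostatic microglia list. The summed levels did not follow these calls. The activated list summed to 4172 to 4949 CPM at day 14 and 4183 to 4384 CPM at day 30, ranges that overlapped. The homeostatic list summed to 2084 to 2144 CPM at day 14 and was higher at day 30, at 2184 to 2244 CPM, without overlap. Of 26 tested activated microglia genes edgeR called 4 higher and 0 lower, with a median of 0.24 against 0.15 contralaterally. At an unadjusted p under 0.05 there were 10 higher and 2 lower, DESeq2 called 4 higher and 2 lower, and limma-voom called 5 higher. When day 14 lesion replicate 2 was left out, none rose and Csf1, a growth factor for microglia, fell. Without day 14 replicate 3, day 30 replicate 1 or day 30 replicate 2, 1 rose, without day 30 replicate 3 it was 2, and without day 14 replicate 1 it was 7. Clec7a, a receptor for fungal sugars (chr6:129461591-129472779, minus strand), measured 2.89, 2.05 and 1.81 CPM at day 14 and 5.89, 4.45 and 3.99 CPM at day 30, against 0.989 ± 0.33 CPM at day 0. The groups did not overlap, and the rise of 1.11 ± 0.24 (adjusted p = 0.012) was not called without day 14 replicate 2 or 3 or day 30 replicate 1 (adjusted p = 0.064 to 0.12). Cybb, a subunit of the phagocyte NADPH oxidase, rose from 2.48, 1.08 and 1.62 CPM to 3.27, 4.27 and 3.69 CPM (1.14 ± 0.23, adjusted p = 0.008). Its adjusted p was 0.1 without day 14 replicate 2 and 0.057 without day 30 replicate 2. Cst7, an inhibitor of lysosomal proteases (chr2:150570415-150578944, plus strand), measured 1.62, 0.409 and 0.941 CPM at day 14 and 2.56, 2.36 and 3.11 CPM at day 30, against 0.0846 ± 0.0083 CPM at day 0. The rise of 1.48 ± 0.35 (adjusted p = 0.026) was not called without day 14 replicate 2 or 3 or any one day 30 library (adjusted p = 0.063 to 0.21). Ccl3, a chemokine, had 18 counts at day 14 and 62 at day 30 over the 3 libraries (1.77 ± 0.45, adjusted p = 0.041). Its call too was lost without day 14 replicate 2 or 3 or any one day 30 library (adjusted p = 0.072 to 0.17). Limma on the deposited log2 matrix did not call Clec7a, Cst7 or Ccl3 (adjusted p = 0.06 to 0.18).

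Other genes of the activated state did not pass the test. Apoe, a lipid carrier, gave 0.03 (adjusted p = 0.93), Spp1, which encodes osteopontin, -0.28 (adjusted p = 0.3) and Itgax, an integrin, 1 (adjusted p = 0.076). Csf1 measured 73.8, 61.1 and 73.7 CPM at day 14 and 57.4, 57.1 and 57.4 CPM at day 30 (-0.28 ± 0.08, adjusted p = 0.067, and 0.021 without day 14 replicate 2). Of 18 homeostatic microglia genes, edgeR called 0, with a median of 0.03. At an unadjusted p under 0.05 there were 2 higher and 3 lower, and DESeq2 called 2 lower. C1qa, a complement subunit made by microglia, measured 98.1, 98.1 and 95.7 CPM at day 14 and 96.1, 106 and 107 CPM at day 30, against 55.3 CPM at day 0 (0.08, adjusted p = 0.64). Cx3cr1, the gene of which all these mice lack 1 copy, measured 34.7, 36.8 and 25.9 CPM at day 14 and 26.8, 25.3 and 25.1 CPM at day 30 (-0.33, adjusted p = 0.23). The list of blood myeloid cells and border macrophages summed to 79.4 to 100 CPM at day 14 and 104 to 120 CPM at day 30, which did not overlap. Of its 19 genes edgeR called 0, with 4 higher at an unadjusted p under 0.05 and a median of 0.43. The part of these cells in the rising myeloid genes was not tested. C3ar1, a complement receptor, rose by 0.69 ± 0.16 (adjusted p = 0.027), which was not called without day 14 replicate 2 or 3 or any one day 30 library (adjusted p = 0.064 to 0.16).

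Interferon-response genes leaned upwards on the lesion side, and here the count of calls rested on day 14 lesion replicate 1. Of 42 tested members 40 had a positive difference, with a median of 0.42 against -0.04 contralaterally, but 1 passed the test. The members summed to 854, 447 and 439 CPM at day 14 and 614, 710 and 914 CPM at day 30, against 363 to 375 CPM at day 0 and 362 to 406 CPM on the contralateral side at days 14 and 30. Thus replicate 1 of day 14 lay inside the day 30 range and replicates 2 and 3 below it. Without replicate 1, 30 of the 42 members rose. Without day 14 replicate 2, 0 members were called and the median was 0.22. DESeq2 called 6 and limma-voom 5 members, all higher. The called member was Irf9, a subunit of the interferon-activated transcription complex, at 18.1, 15.3 and 15.5 CPM against 18.7, 21.4 and 26.2 CPM (0.44 ± 0.1, adjusted p = 0.022). It was not called without day 14 replicate 2 or 3 or day 30 replicate 2 or 3 (adjusted p = 0.057 to 0.16). Ifit3, an antiviral protein, measured 44, 15.6 and 15.1 CPM at day 14 and 23.2, 33 and 48.2 CPM at day 30 (0.5, adjusted p = 0.53). Irf7, a transcription factor, measured 36.2, 9.46 and 8.54 CPM and 19.1, 25.3 and 37.2 CPM (0.61, adjusted p = 0.53). In both, replicate 1 of day 14 overlapped the day 30 libraries.

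The count for interferon-induced GTPases rested on the same library. All 18 tested members had a positive difference, with a median of 0.61 against 0.05 contralaterally. The sums were 158, 69.1 and 64.4 CPM at day 14 and 115, 152 and 183 CPM at day 30. None passed edgeR's test, with 8 higher at an unadjusted p under 0.05, while DESeq2 called 2 and limma-voom 3. Without day 14 replicate 1, 12 members rose.

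Chemokines moved in both directions. Of 22 tested, 2 rose, Cxcl9 and Ccl3, and 1 fell, Ccl7. Cxcl9, an interferon-gamma-induced attractant of T cells (chr5:92321347-92328079, minus strand), measured 1.11, 0.0372 and 0.263 CPM at day 14 and 2.36, 2.23 and 3.69 CPM at day 30, or 30 counts against 195. The groups did not overlap, and the rise was 2.67 ± 0.55 (adjusted p = 0.018). It was not called without day 14 replicate 3 or without day 30 replicate 1 or 3 (adjusted p = 0.051 to 0.069), nor with only the 2 groups (adjusted p = 0.21) or by limma on the deposited log2 matrix (adjusted p = 0.06). Cxcl10, a related chemokine, varied more within groups, at 11.8, 0.298 and 1.02 CPM against 2.66, 5.9 and 17 CPM (1.01, adjusted p = 0.63). Ccl5, made by T cells and microglia, measured 3.65, 0.893 and 1.81 CPM at day 14 and 5.45, 4.18 and 8.51 CPM at day 30 (1.55 ± 0.4, adjusted p = 0.06).

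Lymphocyte genes showed few called changes. In the list of T and cytotoxic cells edgeR called 0 of 31 higher and 2 lower, Thy1 and Trbc2. The median was 0.3, 23 of 31 differences were positive, and at an unadjusted p under 0.05 there were 10 higher and 2 lower. Limma-voom called 2 higher and 2 lower, and DESeq2 called 1 lower. Thy1 is also made by neurons, and it was the 1 called member of a list of 19 pan-neuronal and synaptic vesicle genes. That list had 16 negative and 3 positive differences, with a median of -0.08 against -0.05 contralaterally. It summed to 15923 to 17185 CPM at day 14 and 15205 to 15888 CPM at day 30, which did not overlap. DESeq2 called 4 of its members lower and limma-voom 1. Thy1 measured 910, 1004 and 968 CPM at day 14 and 812, 821 and 832 CPM at day 30. Its fall of -0.23 ± 0.06 (adjusted p = 0.039) and that of Trbc2, a T cell receptor chain with 70 counts at day 14 and 26 at day 30 (-1.41 ± 0.36, adjusted p = 0.039), were not called without day 14 replicate 2 (adjusted p = 0.19 and 0.13), nor without day 14 replicate 3 or day 30 replicate 1 or 2 (adjusted p = 0.06 to 0.18). Without day 30 replicate 3, Thy1 was not called (adjusted p = 0.099). Of the T cell receptor and coreceptor genes, which had few counts, Cd3e gave -0.01, Cd3d 2.42 (adjusted p = 0.074), Cd3g 1.37 (0.26), Cd8a 1.44 (0.21), Cd8b1 2.69 (0.18) and Cd6 2.03 (0.15), and edgeR called none of them. Ly9, a receptor of lymphocytes and myeloid cells, rose from 1.72, 1.12 and 1.17 CPM to 3.37, 2.86 and 3.65 CPM (1.32 ± 0.27, adjusted p = 0.01). It was not called without day 14 replicate 2 or 3 or day 30 replicate 1 or 3 (adjusted p = 0.051 to 0.087). In the list of B and plasma cells 1 of 13 fell, Sdc1, a surface proteoglycan also made by other cells, from 12.3, 13.3 and 14.9 CPM to 4.31, 8.22 and 7.05 CPM (-1.06 ± 0.15, adjusted p = 0.00022). Of 14 class II presentation and costimulation genes edgeR called 0, with 3 higher at an unadjusted p under 0.05 and 1 called by DESeq2. These genes nevertheless leaned upwards, with 11 positive and 3 negative differences and a median of 0.26 against 0.21 contralaterally. For 7 of the 14, all 3 day 30 libraries lay above all 3 day 14 libraries. The list summed to 64.7 to 67.5 CPM at day 14 and 79.2 to 82.1 CPM at day 30, which did not overlap.

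In the reactive astrocyte list 3 of 27 fell and 1 rose, and the list's median was 0.18. Cd44, a hyaluronan receptor, fell from 32.7, 23.3 and 28.2 CPM to 14.5, 16.3 and 19.8 CPM (-0.74 ± 0.14, adjusted p = 0.0073, but 0.067 without day 30 replicate 1). Serpina3n, a protease inhibitor, fell from 156, 190 and 166 CPM to 103, 96.3 and 114 CPM (-0.71 ± 0.14, adjusted p = 0.019). It was not called without day 14 replicate 2 or day 30 replicate 1 or 2 (adjusted p = 0.085 to 0.13). The other falling member, Ptx3, was near 1 CPM (-1.4 ± 0.34, adjusted p = 0.031) and was not called without day 14 replicate 2 or any one day 30 library (adjusted p = 0.051 to 0.18). Osmr, a cytokine receptor, rose by 0.56 ± 0.13 (adjusted p = 0.024), not called without day 14 replicate 2 or 3 or any one day 30 library (adjusted p = 0.052 to 0.15). Gfap, the intermediate filament of reactive astrocytes, measured 935, 930 and 862 CPM at day 14 and 1111, 1035 and 854 CPM at day 30 (0.14, adjusted p = 0.73). Its groups overlapped. None of 18 general astrocyte genes was called by edgeR, DESeq2 or limma-voom, with 6 higher at an unadjusted p under 0.05.

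Genes of the mevalonate steps of cholesterol synthesis fell. Of 24 tested genes of the pathway 3 fell and 0 rose, with 12 lower at an unadjusted p under 0.05 and a median of -0.16 against 0.06 contralaterally. Mvk, which phosphorylates mevalonate, fell from 44.4, 57.2 and 51.9 CPM to 36.7, 38.1 and 38.5 CPM (-0.44 ± 0.08, adjusted p = 0.0036). Mvd, which makes isopentenyl diphosphate, fell from 35.2, 46.4 and 43.2 CPM to 30.7, 32.2 and 30.4 CPM (-0.42 ± 0.09, adjusted p = 0.0082, but 0.088 without day 14 replicate 2 and 0.059 without day 30 replicate 1). The groups did not overlap for either gene. Pmvk, the enzyme between them, fell by 0.27 on the log2 scale (adjusted p = 0.045), which was not called without day 14 replicate 2 or 3 or any one day 30 library (adjusted p = 0.084 to 0.27). Without day 14 replicate 2 or day 30 replicate 1, 1 gene of the pathway fell. Vascular and collagen genes showed few called changes. EdgeR called 1 of 22 collagen and fibroblast genes, 1 of 21 endothelial genes and 0 of 14 pericyte and smooth muscle genes. Col4a1, a basement membrane collagen, fell from 57.4, 58.8 and 56 CPM to 43.5, 44.3 and 40.6 CPM (-0.42 ± 0.07, adjusted p = 0.0024). Col4a2 gave -0.16 (adjusted p = 0.27). Vcam1, an adhesion molecule of activated endothelium, rose from 26.4, 26.4 and 26.5 CPM to 42.8, 37.4 and 36.4 CPM (0.56 ± 0.11, adjusted p = 0.0068, but 0.055 without day 14 replicate 2 and 0.061 without day 30 replicate 1). Contralaterally the log2 differences were -0.27 for Col4a1 and 0.32 for Vcam1, and neither gene was called for the difference between sides.

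Some mitochondrially encoded genes and the heat shock gene Hspa1b rose on both sides. Of 15 mitochondrially encoded genes 5 rose on the lesion side, with a median of 0.65, and 4 on the contralateral side, with a median of 0.58. The share of counts they took was 6.44%, 5.84% and 6.09% in the day 30 lesion libraries and 6.31% to 7.29% contralaterally. Without day 14 lesion replicate 2, whose share was the lowest, 5 were called with a median of 0.45, but only mt-Co1 and mt-Cytb of the 5 called with all libraries remained. Without day 30 replicate 1 it was 2 and without day 30 replicate 3 it was 3. mt-Co1, a subunit of cytochrome oxidase, measured 9676, 7476 and 9634 CPM at day 14 and 14375, 13730 and 13801 CPM at day 30 (0.65 ± 0.09, adjusted p = 0.00043), beside 0.58 contralaterally (adjusted p = 0.0097). Of 43 nuclear genes of the respiratory chain edgeR called 0, with 13 lower at an unadjusted p under 0.05 and 2 called lower by DESeq2. Hspa1b, an inducible chaperone (chr17:34956436-34959238, minus strand), measured 0.557, 0.931 and 1.17 CPM at day 14 and 5.56, 2.86 and 4.72 CPM at day 30 (2.28 ± 0.29, adjusted p = 6e-05), beside 1.67 ± 0.29 contralaterally (adjusted p = 0.015). Hspa1a, its near-identical neighbour, rose by 1.28 ± 0.24 (adjusted p = 0.0049), and reads of the pair cannot be told apart with certainty. Of 61 ribosomal protein genes edgeR called 0 on the lesion side, with 3 lower at an unadjusted p under 0.05 and 0 called by DESeq2, while 6 rose contralaterally.

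Across the lists, the largest falling count was that of the axotomy response and the largest rising counts those of class I presentation and mitochondrially encoded genes. The median of the choroid plexus and ependyma list was -0.59 on the lesion side and -1.65 contralaterally, with 0 of 14 called by edgeR or DESeq2 and 0 at an unadjusted p under 0.05 on the lesion side. The high values lay in day 14 lesion replicate 2 (446 CPM) and in day 14 contralateral replicate 3 (1035 CPM). Genes of neighbouring tissue summed to 1256 to 1509 CPM at day 14 and 1323 to 1361 CPM at day 30, so their ranges overlapped.

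**Figure D4:**
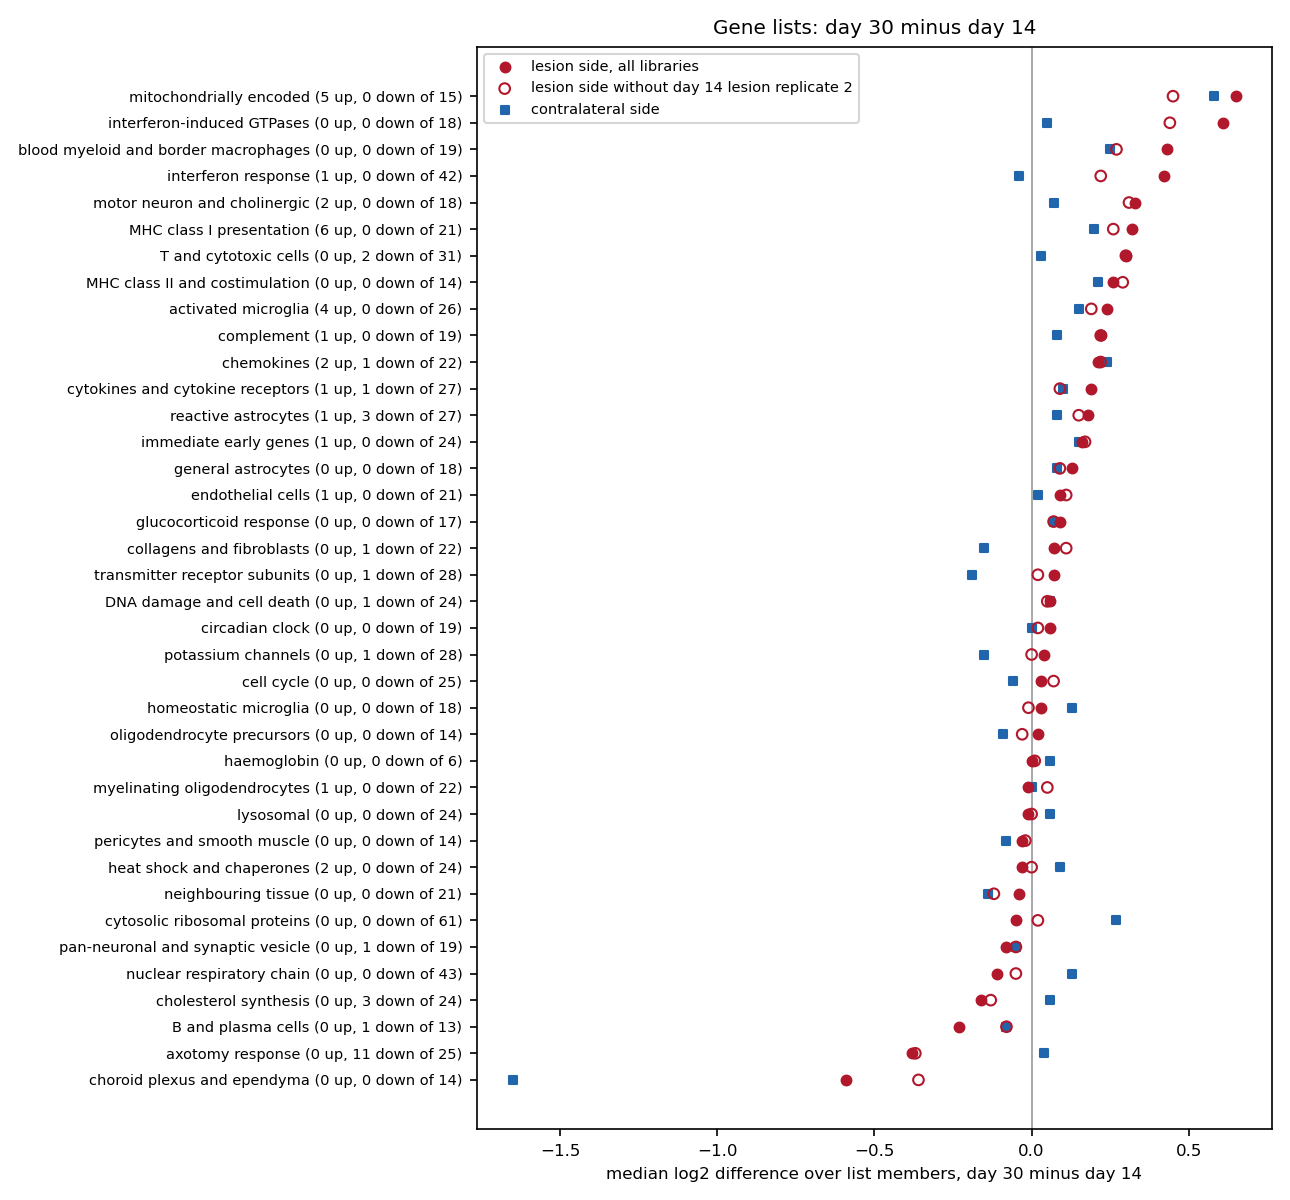
Median log2 difference, day 30 minus day 14, over the tested members of each gene list (horizontal axis), one list per line with its counts of rising and falling members on the lesion side. Filled red circles are the lesion side, open circles the lesion side without day 14 lesion replicate 2, and blue squares the contralateral side. The axotomy response stands at -0.38 on the lesion side and 0.04 contralaterally, while the mitochondrially encoded genes stand at 0.65 and 0.58.

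The same interval on the contralateral side, at the same ages and lanes, gave 91 called genes (0.408% of 22294), of which 39 rose (0.175%) and 52 fell (0.233%). With only the groups compared in the model, the order of the sides reversed, with 1224 contralateral and 167 lesion calls. Which side changed in more genes thus depends on the model. The counts that follow are of the main model. The genes called on both sides numbered 12, which is 3.08% of the lesion calls and 13.2% of the contralateral calls, and all 12 moved the same way. With any 1 of the 6 contralateral libraries left out, 0 to 12 genes were called contralaterally, so the contralateral calls given above rest on all of them. The change on the lesion side minus that on the contralateral side was tested directly. It differed for 18 genes (0.0807%), all lower on the lesion side and all among the 390 lesion calls. At an unadjusted p under 0.05 there were 3376 genes. With the replicate number as a block the count was 745 (418 with a higher change on the lesion side, 327 with a lower one), and with a random block in limma-voom it was 24 (2 higher, 22 lower), with all 18 remaining in both. DESeq2 called 200 (71 higher, 129 lower), with 8 of the 18 among them. The deviations of same-numbered lesion and contralateral libraries correlated at 0.21, 0.21 and 0.19 on day 30 and at 0.27, -0.0034 and 0.17 on day 14, and the labels do not say whether they came from the same mouse. The count was 938 without day 14 lesion replicate 1 and 5 to 16 without any other of the 12 libraries. For the other 372 lesion calls, a difference from the contralateral side was not shown.

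Of the axotomy response list, Gfra1, Tubb2b and Gadd45a were among the 18, and their values are given further below. Avpr1a, Itga7 and Il4ra, described first, are outside that list. Avpr1a, a vasopressin receptor (chr10:122448499-122453452, plus strand), measured 10.1, 13 and 14.6 CPM at day 14 and 4.71, 4 and 5.1 CPM at day 30, against 2.64 ± 0.2 CPM at day 0. Its change was -1.45 ± 0.18 on the lesion side and 0.42 contralaterally, a difference of -1.88 ± 0.29 (adjusted p = 0.0072). Itga7, a laminin-binding integrin subunit (chr10:128933818-128958282, plus strand), fell from 94.4, 102 and 111 CPM to 38.6, 50.1 and 53.2 CPM, against 28.8 ± 1.7 CPM at day 0. The difference between sides was -1.09 ± 0.16 (adjusted p = 0.0072, but 0.056 without day 14 lesion replicate 2). Il4ra, a receptor subunit for interleukins 4 and 13 (chr7:125552120-125579474, plus strand), fell from 22.7, 27.4 and 23.8 CPM to 13.6, 14.6 and 14.8 CPM. Its difference between sides was -0.83 ± 0.13 (adjusted p = 0.0072). For Avpr1a and Il4ra the difference was called without each single library of the 12.

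The difference between sides was -1.06 ± 0.18 for Gadd45a (adjusted p = 0.013) and -1 ± 0.16 for Anxa2, an annexin (adjusted p = 0.017). It was -0.89 ± 0.16 for Gfra1 (adjusted p = 0.03) and -0.66 for Tubb2b (adjusted p = 0.021). Slc6a19, an amino acid transporter, and Mvd gave -1.62 ± 0.32 (adjusted p = 0.03) and -0.66 ± 0.12 (adjusted p = 0.029). The remaining genes called for the difference were Cyb5r3, Fads3, Hn1, Mvk, Nrep, Serpinb6a, Stmn2, Tmem159 and Uck2, with lesion changes of -0.34 (Stmn2) to -0.78 (Hn1) and contralateral changes of 0 (Tmem159) to 0.2 (Serpinb6a). Stmn2 encodes a protein that destabilises microtubules in growing axons. Sprr1a, Gal and Atf3 were not called for the difference. Gal gave -2.59 ± 0.52 (adjusted p = 0.11), and Sprr1a was near 0 contralaterally, at 0.242 ± 0.033 CPM on day 14 and 0.491 ± 0.49 CPM on day 30, which left its difference of -2.87 ± 1.4 imprecise (adjusted p = 0.35).

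**Figure D5:**
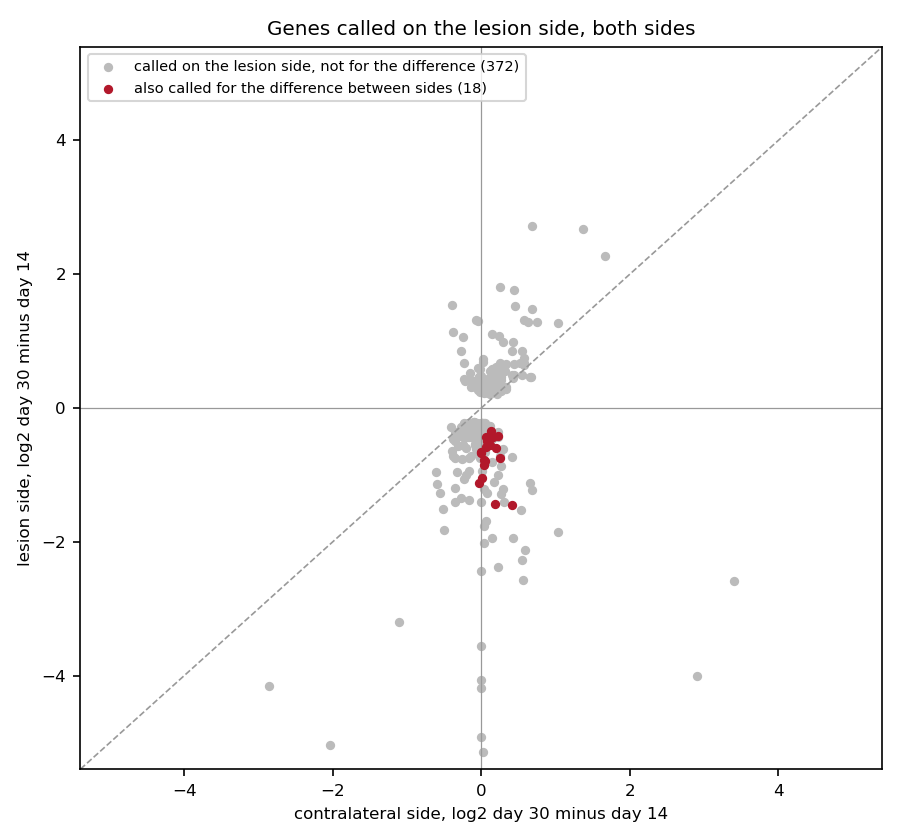
Log2 difference, day 30 minus day 14, on the contralateral side (horizontal axis) and on the lesion side (vertical axis) for the 390 genes called on the lesion side. Each point is a gene, the dashed line marks equal change on both sides, and red points are the 18 genes also called for the difference between sides. All 18 lie below 0 on the lesion side, between -0.34 and -1.45.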

How the data were processed

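RNA (300 ng per library) was made into stranded poly(A) libraries and read as 50-base single reads, per the labels' protocols. The submitters' processing notes name CASAVA 1.8.2, Subread, featureCounts, GRCm38.p4 and limma, and the strand setting is not given in the sources used here. The deposited counts are whole-number read counts per gene (45664 genes), and the deposited log2 values are a matrix of 22294 genes, 22269 of them with a symbol found among the counts. Each of its 21 columns was closest to the count column of its own library.

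Genes with a summed count of at least 30 were tested with edgeR 4.0.16 (R 4.3.3): TMM scaling, all 21 libraries in 1 model, robust quasi-likelihood F-test, Benjamini-Hochberg adjustment over 22294 genes, called at an adjusted p under 0.05. CPM use TMM-scaled library sizes and do not correct for gene length, so levels are compared only within a gene. SE is the log2 difference divided by the square root of F. The code was tested on simulated data. An exact permutation of 3 against 3 libraries cannot go below 0.1, so none is given. Alternatives were DESeq2 1.42.0, limma 3.58.1 (voom, and on the log2 matrix), other scaling and filters, fewer groups, a replicate block, no mitochondrial genes, a log2 threshold of 1.7 and each library left out.

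The genes and lists were chosen with earlier results of these data known. Named by rule were the 10 largest rising and falling called genes above 1 CPM with no overlap between groups, up to 4 genes per list with the smallest adjusted p plus known markers, and the genes with the largest differences between sides. Further called list members and the genes so marked were named after their values were seen. Gene positions are from GENCODE M21 on GRCm38. Of 235 named genes, 51 overlap an exon of a gene on the opposite strand and 14 one on the same strand, among them Gfra1, Gadd45a, Itga7, Il4ra, Anxa2, Irf9, Col4a1, Vcam1 and Serpinb2, and their counts can include reads of the partner.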

Additional observations from a re-analysis of the deposited data

Results flagged for a closer look

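The change from day 14 to day 30 differed between the lesion and the contralateral side by a direct test for the following named genes, all lower on the lesion side. The log2 differences between the sides were -1.88 for Avpr1a, -1.62 for Slc6a19, -1.09 for Itga7, -1.06 for Gadd45a, -1 for Anxa2, -0.89 for Gfra1, -0.83 for Il4ra, -0.66 for Mvd and -0.66 for Tubb2b. With 1 of the 12 libraries left out, Avpr1a and Il4ra were called each time. Itga7 was lost without day 14 lesion replicate 2 (adjusted p = 0.056). Gadd45a was lost without day 14 lesion replicate 3 or day 30 contralateral replicate 1 (adjusted p = 0.05 and 0.052). Anxa2 was lost without day 14 lesion replicate 2 or 3, day 30 lesion replicate 1 or day 14 contralateral replicate 2 (adjusted p = 0.054 to 0.088). Tubb2b was lost without 7 of the 12 libraries (adjusted p = 0.05 to 0.1), the exceptions being day 14 lesion and contralateral replicate 1, day 30 lesion replicates 2 and 3 and day 30 contralateral replicate 3. Gfra1 was lost without 8 (adjusted p = 0.054 to 0.13), the exceptions being day 14 lesion and contralateral replicate 1, day 30 lesion replicate 3 and day 30 contralateral replicate 2. Mvd was lost without 8 (adjusted p = 0.061 to 0.13), the exceptions being day 14 lesion replicate 1, day 14 contralateral replicates 1 and 3 and day 30 contralateral replicate 3. Slc6a19 was lost without 9 (adjusted p = 0.067 to 0.15), the exceptions being day 14 lesion and contralateral replicate 1 and day 30 lesion replicate 2.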

How the results depend on the processing

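Of 79 called genes among the 235 named, 33 were called under every one of the 15 or 16 settings run for them and 40 with each library left out, and 0 changed sign. On the lesion side 390 genes were called, against 789 with DESeq2, 738 with no low-count filter, 167 with only the groups compared in the model, 614 with a replicate block, 26 at an absolute log2 difference of at least 1.7, and 108 to 1343 with 1 library left out. On the contralateral side 91 were called, against 509 with DESeq2, 15 with limma-voom (15 with its random block), 37 on the log2 matrix, 374 with no filter, 1224 with only the groups compared, 353 with the replicate block, 29 without mitochondrial genes, 0 at 1.7 (2877 at an unadjusted p under 0.05) and 0 to 12 with 1 library left out (0 without day 14 replicate 1, with 2350 at an unadjusted p under 0.05). For the difference between sides 18 were called, against 200 with DESeq2 (71 higher, 129 lower, 8 of the 18 among them), 331 with no filter, 92 with only the groups compared, 745 with the replicate block (418 higher, 327 lower, all 18 among them), 1 at 1.7 and 5 to 938 with 1 library left out (938 without day 14 lesion replicate 1). The cause was not tested, beyond fewer libraries or a stricter threshold where the setting has them. The replicate numbers do not pair the days: same-numbered day 14 and day 30 lesion libraries had deviations correlated at 0.023, 0.057 and 0.067 over 15480 genes. With the replicate block 389 of the 390 lesion calls remained. With 3 libraries a group and few counts, falls and rises of genes near 1 CPM are the least precise.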
